A study of Mus musculus with 18 samples.

Results

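Expression of 10 genes of the glycolytic pathway was followed in mouse kidney tubular cells: Hk2, Gpi1, Pfkl, Aldoa, Tpi1, Pgk1, Pgam1, Eno1, Pkm and Ldha. They were taken as a list of symbols and matched to the identifiers in the deposited count table. The 10 genes had 11 identifiers among 55487 gene rows, because Aldoa has 2 entries. Just 1 identifier per gene passed the low-count filter, with 13469 genes in all, so all 10 genes were tested. The second Aldoa entry held 12 reads over all libraries and was not used.

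Glycolysis splits glucose into pyruvate in the cytosol. Its early steps use ATP to phosphorylate the sugar and cleave it, and its late steps return ATP from the resulting triose phosphates. Lactate dehydrogenase then converts pyruvate to lactate and restores the NAD+ that the pathway consumes. In the kidney, proximal tubule cells rely mainly on fatty acid oxidation, whereas glycolysis is known as a feature of distal segments and of injured tubules.

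The cells were im-TEC, tubular epithelial cells carrying a temperature-sensitive SV40 large T antigen. They were propagated with interferon-γ at 33 °C and kept for 7 days at 37 °C without it before seeding. All groups therefore share the immortalizing transgene and a medium that contained insulin, hydrocortisone and epidermal growth factor. The labels name 6 groups of 3 libraries at 48 h. A pair of groups had no supplement, 1 untreated (control) and 1 given TGFβ at 10 ng/mL, a profibrotic cytokine. In the other 4 the medium held either 1 mM nicotinamide (NAM) or 0.5 mM S-adenosyl methionine (SAM), each without TGFβ and combined with it. NAM and SAM are the substrates of nicotinamide N-methyltransferase, the enzyme named in the study's title, and the design asks how each alters the response to TGFβ. The labels do not say whether the 3 libraries of a group came from separate cultures, so p-values measure the spread between these libraries, which may be technical.

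Reads assigned to genes ranged from 4171170 to 7717626 per library. Of 16 tubular epithelial markers, 7 reached a mean of 5 CPM (the count of a gene relative to the scaled library size), among them Pax8, Cdh16, Lrp2 and Aqp1. Epcam, Umod and Aqp2 had no reads, and Cdh1 averaged 0.177 CPM. The 6 SAM libraries carry a separate run of library numbers, and the labels do not say whether it marks a separate preparation. A difference that goes with this run of numbers cannot be told apart from SAM in any comparison of SAM with another medium. The treatment tags of SAM replicates 2 and 3 also conflict with their titles, which were followed. NAM replicate 3 and TGFβ+NAM replicate 1 stand apart from the others, with 23.9% and 22.8% of reads outside genes against 24.9% to 28.2% elsewhere.

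Some members are harder to count than others from reads near the 3′ end. In Eno1, 294 of 351 windows of 50 bases in the last 400 bases of the transcript also occur in transcripts of 5 other genes. The same windows were shared to 5.41% in Gpi1, to 1.71% in Aldoa and to 0% in the other 7 members. Over the whole transcript the shared portion was 72.2% for Eno1, 68% for Pgk1 and 41.5% for Pgam1, which have many processed copies in the genome. Pgk1 and Pgam1 were covered by 693 and 867 reads over all 18 libraries, against 50768 for Aldoa. Values for Eno1 are therefore uncertain, since the counting could have split or dropped its reads. Those for Pgk1 and Pgam1 are uncertain because the reads are few. Their last 400 bases are not shared, and whether sharing further upstream affected their counts was not tested. The last bases of Tpi1 overlap Spsb2 on the opposite strand over 34 bases, and no source used here gives the strand setting.

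Upstream sequence is shown for Aldoa, Ldha and Eno1, because Aldoa had the strongest TGFβ effect among the well-counted members and the other genes are those whose TGFβ effect differed with SAM. Each window holds the 250 bases before a RefSeq start site in GRCm38.p6, printed 5′ to 3′ on the strand of the gene. Aldoa and Eno1 have 3 listed start sites each and Ldha 2, and the site with the most matches is shown, or the first listed on a tie. Capitals mark ACGTG or its reverse complement CACGT, the core that hypoxia-inducible factors and E-box factors can bind.
Aldoa promoter, chr7:126799255-126799504 (- strand): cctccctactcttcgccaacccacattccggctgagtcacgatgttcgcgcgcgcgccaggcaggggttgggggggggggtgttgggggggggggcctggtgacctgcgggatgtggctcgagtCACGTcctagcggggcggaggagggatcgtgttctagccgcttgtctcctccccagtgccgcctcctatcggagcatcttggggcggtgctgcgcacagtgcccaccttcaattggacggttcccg
Ldha promoter, chr7:46845554-46845803 (+ strand): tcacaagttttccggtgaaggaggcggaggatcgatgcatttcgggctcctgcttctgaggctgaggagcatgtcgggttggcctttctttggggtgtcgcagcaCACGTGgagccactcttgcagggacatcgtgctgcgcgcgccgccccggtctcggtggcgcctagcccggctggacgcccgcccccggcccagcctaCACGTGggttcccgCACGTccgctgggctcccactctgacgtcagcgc
Eno1 promoter, chr4:150236458-150236707 (+ strand): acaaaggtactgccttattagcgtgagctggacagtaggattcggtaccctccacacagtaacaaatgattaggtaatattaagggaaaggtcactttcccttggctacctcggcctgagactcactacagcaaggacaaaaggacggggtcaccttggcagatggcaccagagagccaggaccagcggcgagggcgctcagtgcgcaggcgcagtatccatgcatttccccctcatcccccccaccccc
The Aldoa window holds 1 match and the Ldha window 3, of which a pair lies in CACGTG, where both strands read the same and overlapping matches count once. The Eno1 window holds none, as do its other windows, the first Aldoa window and the second Ldha window. At least 1 start site had a match in 6 of the 10 members, in 7 of their 16 windows, against 16.6% of all 32851 windows of this length. The related letters GCGTG or CACGC were found in 4 members and 6 of their 16 windows, against 28.2% of all windows. The windows of start sites 2 and 3 overlap in Aldoa and in Eno1, so the same match can count in both windows. The shares of all windows are per window and cannot be set against the counts of members. Such a match describes the letters only.

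**Figure D1:**
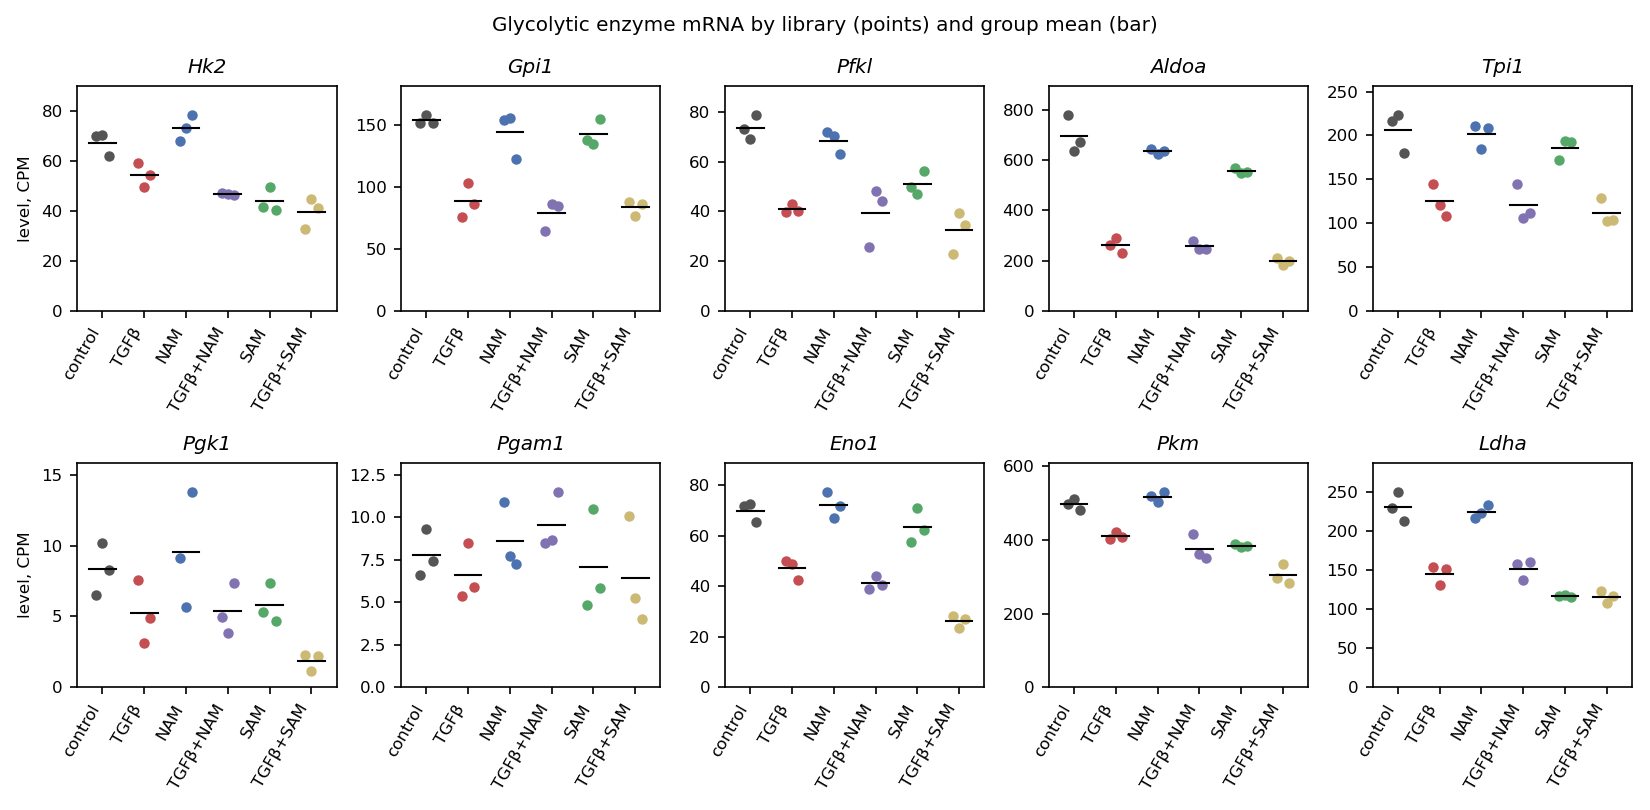
Level of each glycolytic gene in CPM (linear axis from 0) for the 6 groups. Each point is a library and each bar the mean of 3. Aldoa lies at 636 to 779.9 CPM in control and at 230.2 to 291 CPM with TGFβ, and Ldha is near the same level in SAM and TGFβ+SAM.

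TGFβ was accompanied by lower mRNA along most of the pathway. Against control, 7 of the 10 genes fell and none rose, where 9.74% of all tested genes fell (edgeR quasi-likelihood test, Benjamini-Hochberg adjusted p under 0.05 over all genes). The median log2 change of the 10 genes was -0.67, against 0.01 for all tested genes. All TGFβ libraries lay below all control libraries for 8 members, which held for 18% of all genes. The summed level of the 10 genes was 2012 ± 91 CPM in control and 1185 ± 47.3 CPM with TGFβ (SD, n = 3). In bulk RNA, fewer cells of a type and less RNA per cell cannot be told apart.

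Gene positions are those of GRCm38 (GENCODE M21), matched by identifier. Among the enzymes that prepare and split the sugar, Aldoa (ENSMUSG00000030695, chromosome 7, 126795234 to 126800751, minus strand), the aldolase that cleaves fructose 1,6-bisphosphate, changed most. Its level was 779.9, 636 and 673 CPM in control and 262, 291 and 230.2 CPM with TGFβ. The highest TGFβ library was below the lowest control library by more than the spread within either group. The fitted log2 change was -1.41 ± 0.09 (SE; edgeR adjusted p = 4.36e-16), a level 0.376 of control.

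Gpi1 (ENSMUSG00000036427, chromosome 7, 34201330 to 34230336, minus strand), the isomerase that turns glucose 6-phosphate into fructose 6-phosphate, was measured at 152, 158 and 152 CPM in control and at 75.8, 103 and 86 CPM with TGFβ. These groups did not overlap, and the change was -0.80 ± 0.12 (edgeR adjusted p = 9.1e-07). Pfkl (ENSMUSG00000020277, chromosome 10, 77986947 to 78010083, minus strand), the liver-type subunit of phosphofructokinase at the main committed step, gave 73.1, 69.2 and 78.7 CPM against 39.6, 42.9 and 40.3 CPM, and the TGFβ libraries lay close together well below control. Its change was -0.85 ± 0.16 (edgeR adjusted p = 0.000115). Tpi1 (ENSMUSG00000023456, chromosome 6, 124810586 to 124814296, minus strand), which interconverts the triose phosphates, was at 216, 223 and 179.7 CPM in control and at 145, 121 and 108 CPM with TGFβ, again without overlap. It changed by -0.72 ± 0.12 (edgeR adjusted p = 5.73e-06).

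Hk2 (ENSMUSG00000000628, chromosome 6, 82725025 to 82774454, minus strand), the inducible hexokinase at the entry of the pathway, did not pass. Its control libraries held 69.9, 70.5 and 62 CPM and its TGFβ libraries 59.3, 49.6 and 54.5 CPM. The groups did not overlap but were close, and the log2 change was -0.31 ± 0.13 (edgeR adjusted p = 0.0914). A fit restricted to the libraries of these groups gave -0.32 with adjusted p = 0.0424.

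Among the enzymes of the ATP-yielding steps, Eno1 (ENSMUSG00000063524, chromosome 4, 150236721 to 150248879, plus strand), the enolase that forms phosphoenolpyruvate, gave 71.5, 72.6 and 65.4 CPM in control and 49.9, 48.7 and 42.3 CPM with TGFβ. No library overlapped, and the change was -0.57 ± 0.13 (edgeR adjusted p = 0.000725). Pkm (ENSMUSG00000032294, chromosome 9, 59656368 to 59679375, plus strand), the pyruvate kinase that makes pyruvate, moved less, from 499, 512 and 482 CPM to 404, 423 and 409 CPM. Both groups were tight and separate, and the change of -0.27 ± 0.08 passed (edgeR adjusted p = 0.0123). That call ended without control replicate 2 (adjusted p = 0.061) or without TGFβ replicate 1 (adjusted p = 0.0528).

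Pgk1 (ENSMUSG00000062070, chromosome X, 106187100 to 106203699, plus strand), the kinase of the first ATP-yielding step, and Pgam1 (ENSMUSG00000011752, chromosome 19, 41911923 to 41918660, plus strand), the mutase after it, did not pass. Pgk1 gave 6.48, 10.2 and 8.28 CPM in control and 7.58, 3.14 and 4.91 CPM with TGFβ, and the groups overlapped. Its log2 change of -0.67 had a 95% interval from -1.46 to 0.12, and that of Pgam1, -0.23, one from -0.94 to 0.47. Both intervals include the value fitted for Tpi1, so a change of that size is neither shown nor excluded in these genes.

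Ldha (ENSMUSG00000063229, chromosome 7, 46841475 to 46855627, plus strand), the lactate dehydrogenase subunit that favours lactate formation, was at 229, 249.8 and 212 CPM in control. With TGFβ it was at 153, 131 and 151 CPM, all below control. The change was -0.67 ± 0.09 (edgeR adjusted p = 4.6e-07).

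Cell markers moved in the same libraries. The summed level of the 16 tubular markers was 1942 to 2030 CPM in control and 817 to 903 CPM with TGFβ. Of its 8 tested genes 5 fell and 1 rose, where 9.74% of all genes fell and 9.7% rose. The summed level of 6 fibroblast markers was 6.72 to 8.61 CPM in control and 124 to 134 CPM with TGFβ, from Col1a1, Col1a2 and Pdgfrb, whereas Lum had no reads and Pdgfra and Dcn had 3 and 9 reads in all libraries together. The part of these shifts in the glycolytic result was not tested.

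**Figure D2:**
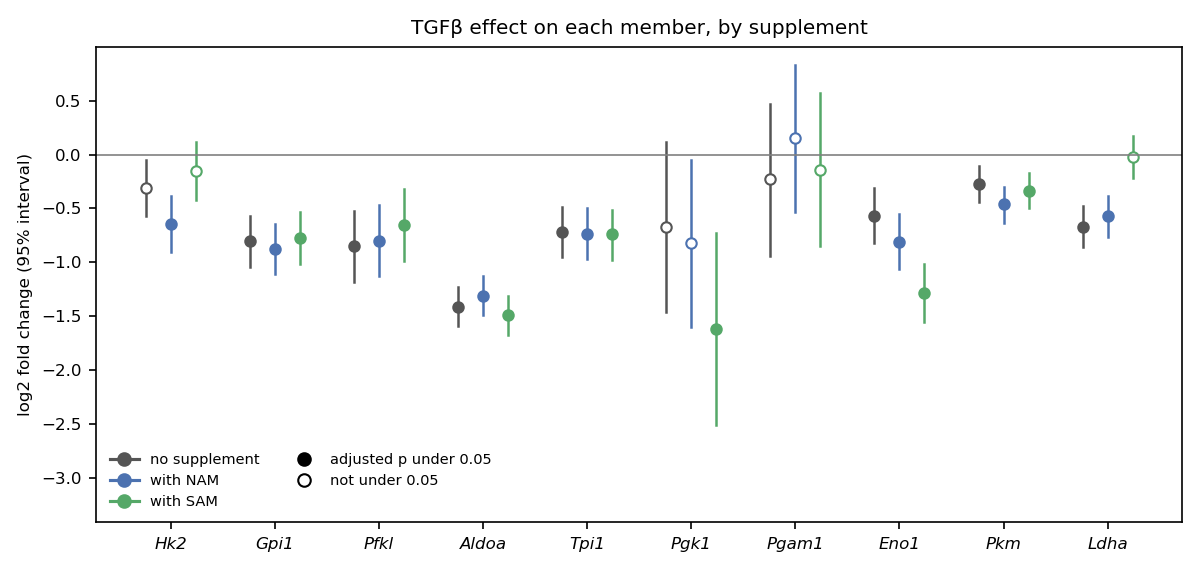
Fitted log2 fold change of each gene with TGFβ in cells without supplement, with NAM and with SAM; bars are 95% intervals. Filled points have an edgeR adjusted p under 0.05. Aldoa lies between -1.31 and -1.49 in all 3, while Ldha is at -0.02 with SAM.

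With either supplement present, TGFβ was again accompanied by lower glycolytic mRNA. These comparisons share no library with each other or with the one above. With NAM, TGFβ lowered 8 of the 10 genes, where 11% of all genes fell, and the libraries of 8 did not overlap, against 17.8% of all genes. The median change was -0.77, against 0 for all genes. Aldoa fell from 646, 624 and 638 CPM in NAM to 279, 245 and 247 CPM in TGFβ+NAM, with -1.31 ± 0.09 (edgeR adjusted p = 3.01e-15). These groups were tight and far apart.

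Hk2 passed with NAM. It was at 68.2, 73.2 and 78.4 CPM in NAM and at 47.2, 47 and 46.6 CPM in TGFβ+NAM, where the 3 libraries were almost equal. The change was -0.64 ± 0.13 (edgeR adjusted p = 0.000176). Whether it differs from the change without a supplement was tested as an interaction, the TGFβ effect with NAM minus that without. For Hk2 this was -0.33 ± 0.18, with a 95% interval from -0.70 to 0.04 (edgeR adjusted p = 1), so a difference was not shown. No member had a called NAM interaction, and none of all 13469 genes did in edgeR or DESeq2. At an unadjusted p under 0.05 there were 0 members and 462 genes.

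With SAM, TGFβ lowered 7 of the 10 genes, where 14.2% of all genes fell. The libraries of 7 did not overlap, against 19.5% of all genes, and the median change was -0.7 against 0. Aldoa was at 570.3, 549.8 and 554 CPM in SAM and at 212, 184 and 199.6 CPM in TGFβ+SAM, again wide apart, with -1.49 ± 0.09 (edgeR adjusted p = 4.71e-17). Gpi1 and Tpi1 changed by -0.77 and -0.74, close to their changes without a supplement.

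Pgk1 passed with SAM only on few reads. It had 5.32, 7.35 and 4.66 CPM in SAM and 2.3, 1.14 and 2.17 CPM in TGFβ+SAM, which is 109 reads against 34. The libraries did not overlap, and the change was -1.62 ± 0.44 (edgeR adjusted p = 0.00418). With SAM replicate 1 as the only SAM library, the calls for Pgk1 and Pfkl ended at -1.50 and -0.62 (adjusted p = 0.0713 and 0.0671). Hk2 was already low in SAM, at 41.6, 49.7 and 40.5 CPM, and overlapped TGFβ+SAM at 32.6, 44.9 and 41.3 CPM. Its change of -0.15 ± 0.13 did not pass (edgeR adjusted p = 0.449).

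The comparisons with NAM alone ask whether the vitamin itself alters the pathway. No member passed in NAM against control, where 0.00742% of all genes, a single gene, passed in edgeR. No member had an unadjusted p under 0.05, against 722 of all genes, and DESeq2 called 0 members and 14 genes. Log2 changes ran from -0.13 for Aldoa to 0.20 for Pgk1. The 95% interval was -0.31 to 0.04 for Aldoa, -0.23 to 0.15 for Ldha and -0.11 to 0.22 for Pkm. It was far wider for Pgk1 (-0.55 to 0.94) and Pgam1 (-0.54 to 0.82). Ldha was at 216, 223 and 233 CPM in NAM, within the control range.

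Under TGFβ, no member passed with NAM, where 0.0817% of all genes passed. No member had an unadjusted p under 0.05, against 932 of all genes, and DESeq2 called 0 members and 36 genes. Hk2 was lower in every TGFβ+NAM library than in every TGFβ library and Pgam1 was higher, but neither passed, with -0.22 ± 0.13 and 0.52 ± 0.35 (edgeR adjusted p = 0.781 and 0.815). Libraries were separate and lower for 5.81% of all genes and separate and higher for 6.02%. For Ldha the interval was -0.13 to 0.26 and for Aldoa -0.21 to 0.15.

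**Figure D3:**
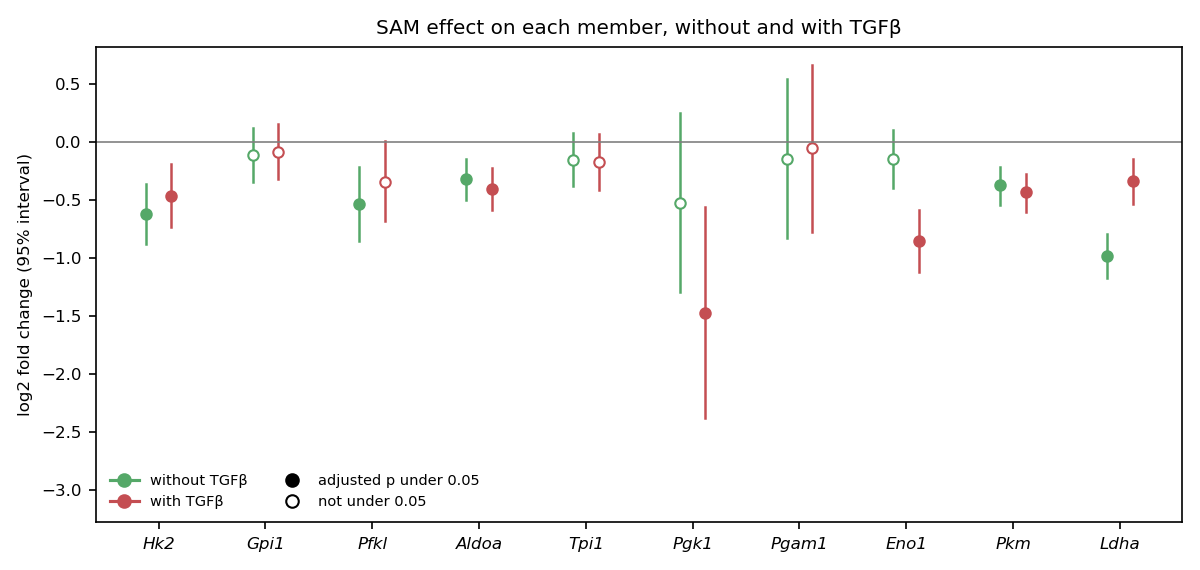
Fitted log2 fold change of each gene with SAM, in cells without TGFβ (against control) and with TGFβ (against TGFβ); bars are 95% intervals. Filled points have an edgeR adjusted p under 0.05. Ldha is at -0.98 without TGFβ and -0.33 with it, and Eno1 at -0.14 and -0.85.

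In SAM against control, 5 of the 10 genes fell and none rose, where 6.79% of all genes fell and 5.02% rose. All 10 fitted changes were below 0. Libraries of 5 members lay wholly below control, against 16.2% of all genes, and the median change was -0.35 against 0. The control libraries are those used above for TGFβ. Whether these differences go with SAM or with the separate run of library numbers cannot be told apart. Summed marker levels also moved in these libraries without overlap, from 1942 to 2030 CPM in control to 2169.9 to 2265 CPM in SAM for the tubular list and from 6.72 to 8.61 CPM to 2.66 to 3.19 CPM for the fibroblast list. The tubular list did not move in 1 direction, as 1 of its 8 tested genes was called higher and 2 lower. Mean Aqp1, the largest part of that sum, went from 1031 to 1267 CPM. Mean Lrp2 went from 101 to 59.4 CPM and mean Krt8 from 99.4 to 64.9 CPM. The immune list went from 11.9 to 14.7 CPM to 20.3 to 34.1 CPM, with Cd68 called higher and Adgre1, Itgam and Cd3e without reads. Their part in the result was not tested.

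Ldha had the largest of these changes. It was at 117, 118 and 115 CPM in SAM, a spread of 1.58 CPM (SD, n = 3), against 212 to 249.8 CPM in control. The log2 change was -0.98 ± 0.09 (edgeR adjusted p = 3.18e-10), a level 0.506 of control. Hk2 fell by 0.62 on the log2 scale, from 62 to 70.5 CPM in control to 40.5 to 49.7 CPM in SAM, without overlap (edgeR adjusted p = 0.000821). Hk2 phosphorylates glucose at the start of the pathway, and Ldha acts at its lactate end.

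Pkm fell from 482 to 512 CPM in control to 389, 382 and 383 CPM in SAM, with -0.37 ± 0.08 (edgeR adjusted p = 0.0013). Pfkl was at 49.8, 46.9 and 56.4 CPM in SAM, below control, with -0.53 ± 0.16 (edgeR adjusted p = 0.0226). Aldoa was at 549.8 to 570.3 CPM, also below control, with -0.32 ± 0.09 (edgeR adjusted p = 0.0109). Without SAM replicates 2 and 3 the SAM group is 1 library, assumed to vary like the other groups. Of the 10 genes only Hk2 and Ldha then passed, while the fitted changes were -0.57 for Pfkl, -0.29 for Aldoa and -0.36 for Pkm (adjusted p = 0.214, 0.265 and 0.107). Aldoa no longer passed without control replicate 1, at -0.23 (adjusted p = 0.142). Pfkl no longer passed without control replicate 1 or 3 or SAM replicate 1 or 2 (adjusted p = 0.0616, 0.088, 0.0724 and 0.0979), with changes from -0.48 to -0.54. Leaving out control replicate 1 thus left 3 members called.

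Gpi1, Tpi1, Eno1, Pgk1 and Pgam1 did not pass in SAM. Gpi1 was at 138, 135 and 155 CPM and Tpi1 at 172, 194 and 192 CPM, with 2 Gpi1 libraries and 1 Tpi1 library below all control libraries and the others within the control range. Their changes were -0.11 and -0.15, with intervals from -0.34 to 0.12 and from -0.38 to 0.08. Eno1 gave 57.4, 71 and 62.1 CPM in SAM and a change of -0.14 (edgeR adjusted p = 0.543).

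In TGFβ-treated cells, SAM was accompanied by lower levels of 6 genes and higher levels of none, where 4.25% of all genes fell. The libraries of 7 members lay wholly below TGFβ alone, against 11.9% of all genes. Eno1 changed most among the members with more than a few reads, from 42.3 to 49.9 CPM with TGFβ to 28, 23.3 and 27 CPM with TGFβ+SAM. The groups were far apart, and the change was -0.85 ± 0.13 (edgeR adjusted p = 1.78e-05). Pkm and Aldoa fell by 0.43 and 0.40 on the log2 scale (edgeR adjusted p = 0.000287 and 0.00286). In the same libraries the fibroblast sum went from 124 to 134 CPM to 67.5 to 78.3 CPM and the immune sum from 5.73 to 7.7 CPM to 11 to 15.4 CPM. Of the 3 tested fibroblast genes 1 was called lower and none higher, with a median log2 change of 0.05. Mean Col1a1 went from 109 to 42.9 CPM, whereas mean Col1a2 went from 19.3 to 27 CPM. The part of these shifts in the result was not tested.

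Calls for Hk2, Ldha and Pgk1 depended on single libraries. Hk2 changed by -0.46, Ldha by -0.33 and Pgk1 by -1.47 (edgeR adjusted p = 0.026, 0.0246 and 0.0348). In a fit of the compared groups alone, adjusted p was 0.051 for Hk2, 0.0523 for Ldha and 0.0967 for Pgk1, and 3 members passed. Without TGFβ replicate 1 or TGFβ replicate 3, 3 members passed as well. Without TGFβ replicate 1, adjusted p was 0.135 for Hk2, 0.118 for Ldha and 0.254 for Pgk1, and without TGFβ replicate 3 it was 0.063, 0.0903 and 0.066. Hk2 and Pgk1 also lost their calls without TGFβ+SAM replicate 1 (adjusted p = 0.184 and 0.0569). Ldha and Pgk1 lost theirs without TGFβ+SAM replicate 2 (adjusted p = 0.138 and 0.165).

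The TGFβ effect itself differed with SAM for 2 members, Ldha and Eno1, where 1.43% of all genes had a called interaction. Each side of this difference compares libraries within 1 run of library numbers, but the sides come from different runs of numbers. A TGFβ effect that differs between these runs of numbers cannot be told apart from one that differs with SAM. TGFβ changed Ldha by -0.67 without a supplement and by -0.02 ± 0.10 with SAM, where SAM libraries held 115 to 118 CPM and TGFβ+SAM libraries 123, 107 and 116 CPM. These overlapped fully. The interaction was 0.65 ± 0.13, with a 95% interval from 0.38 to 0.92 (edgeR adjusted p = 0.00409). It passed when any 1 of the 12 libraries was left out, with adjusted p of at most 0.0303. Without SAM replicates 2 and 3 it was 0.66 with adjusted p = 0.0788.

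Eno1 went the other way. TGFβ changed it by -0.57 without a supplement and by -1.28 ± 0.13 with SAM, where it went from 57.4, 71 and 62.1 CPM to 28, 23.3 and 27 CPM. The interaction was -0.71 ± 0.18, with a 95% interval from -1.08 to -0.34 (edgeR adjusted p = 0.0317). This call was lost when control replicate 1, 2 or 3, TGFβ replicate 1 or 2, SAM replicate 2 or 3, or TGFβ+SAM replicate 2 was left out, with adjusted p from 0.0547 to 0.12, while the fitted interaction was -0.63 to -0.74. Without SAM replicates 2 and 3 together it was -0.56 with adjusted p = 0.417. Eno1 is also the member whose 3′ end is shared most with other genes. For Aldoa the SAM interaction was -0.08, with an interval from -0.33 to 0.17, and for Gpi1 and Tpi1 it was 0.03 and -0.02.

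Set against the other substrate, SAM gave lower levels than NAM, at doses that differ (0.5 mM and 1 mM). Without TGFβ, Hk2, Pkm and Ldha were lower in SAM than in NAM, 3 members where 7.83% of all genes were lower, with -0.74, -0.43 and -0.94 (edgeR adjusted p = 5.92e-05, 0.000172 and 7.96e-10). The libraries of 5 members did not overlap, against 16.5% of all genes. With TGFβ, 5 members were lower with SAM than with NAM, where 4.47% of all genes were, and 6 did not overlap, against 11.5%. They were Aldoa (-0.37), Pgk1 (-1.51), Eno1 (-0.65), Pkm (-0.30) and Ldha (-0.40). Only 3 passed in a fit of the compared groups alone, where adjusted p was 0.114 for Pgk1 and 0.105 for Pkm. Without TGFβ+SAM replicate 2, 3 passed as well, and adjusted p was 0.0551 for Aldoa and 0.134 for Pgk1. Pgk1 was also lost without TGFβ+NAM replicate 3 (adjusted p = 0.128), and Pkm without TGFβ+NAM replicate 1 (adjusted p = 0.115), TGFβ+SAM replicate 1 (0.0651) or TGFβ+SAM replicate 3 (0.0664). Without both libraries that stand apart, Pkm was at -0.22 (adjusted p = 0.104) and Pfkl passed at -0.51 (adjusted p = 0.039), against -0.28 with all libraries. Leaving out TGFβ+NAM replicate 1 alone gave Pfkl -0.52 (adjusted p = 0.0413). In SAM against NAM, Pfkl was at -0.43 (adjusted p = 0.0673) and passed in 4 alternatives, with adjusted p from 0.0163 to 0.0397.

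The lowest levels of most members were found with TGFβ and SAM together. Against control, 9 of the 10 genes fell, all except Pgam1, where 14.1% of all genes fell. The libraries of 9 did not overlap, against 21% of all genes, and 9 passed when any 1 library was left out. Changes of the 9 ran from -0.71 for Pkm to -2.14 for Pgk1, with Aldoa at -1.81 ± 0.09 (edgeR adjusted p = 1.84e-19). The summed level was 919 ± 22.5 CPM, against 2012 ± 91 CPM in control and 1559 ± 12.3 CPM in SAM (SD, n = 3). By group means, TGFβ+SAM was lowest for every member except Gpi1, which was lowest in TGFβ+NAM at 78.7 ± 12.1 CPM. TGFβ+SAM lay apart from the next group above it for Aldoa, Eno1, Pkm and Pgk1, and overlapped it for the other members. That group was TGFβ+NAM for Aldoa, Eno1 and Pkm, and TGFβ for Pgk1. Libraries of TGFβ+SAM were separate and lower for 11.5% of all genes against TGFβ+NAM and for 11.9% against TGFβ. Neighbours were picked for each member by sorting the same means, so these shares are not a like measure. Ldha in SAM and TGFβ+SAM was nearly equal, at 117 ± 1.58 and 115 ± 8.07 CPM.

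At the upper end, control and NAM were the highest groups for all members but Pgam1, and their libraries overlapped for all 10. SAM came next for Gpi1, Pfkl, Aldoa, Tpi1, Pgk1 and Eno1, and overlapped the group above it for Gpi1, Tpi1, Pgk1 and Eno1. For Hk2, Pkm and Ldha, SAM ranked below TGFβ alone. All 6 groups of Pgam1 lay between 6.45 and 9.55 CPM in their means, and every group overlapped its neighbours. TGFβ and TGFβ+NAM were neighbours for 7 members (Hk2, Pfkl, Aldoa, Tpi1, Pgk1, Eno1 and Ldha) and overlapped for all of these but Hk2. The order was sorted from the means of each member, so these overlaps only describe the levels and have no share of all genes beside them.

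**Figure D4:**
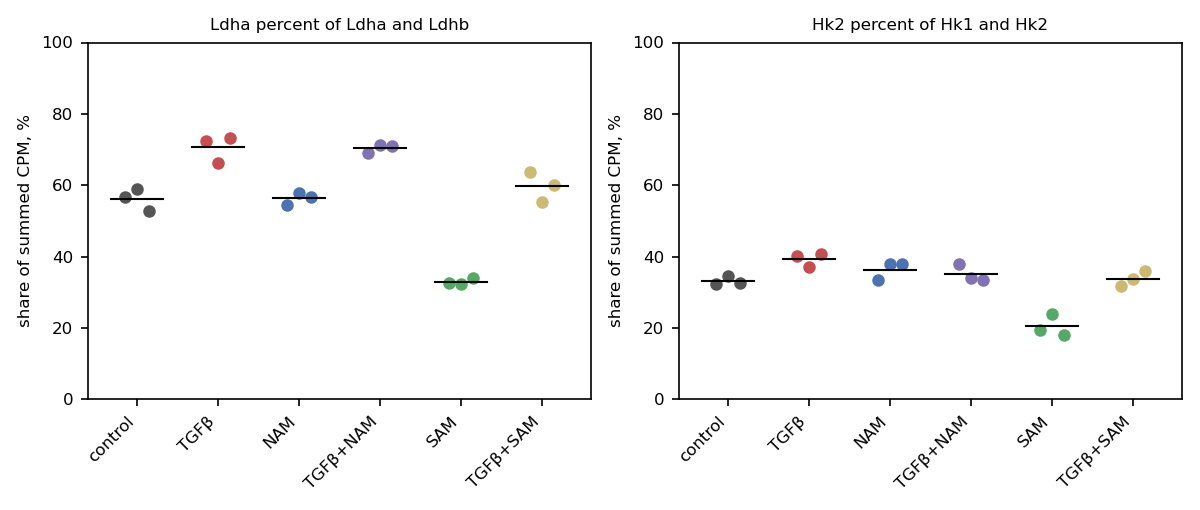
Share of Ldha in the summed CPM of Ldha and Ldhb (left) and of Hk2 in that of Hk1 and Hk2 (right), in percent, for each library (points) with the mean of 3 (bar). SAM libraries are the lowest in both panels, at 32.2% to 33.9% for Ldha.

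Partner isoforms moved unequally with their member. Ldhb, the subunit that favours lactate oxidation, fell with TGFβ from 179.6 ± 8.63 to 60.1 ± 5.65 CPM (SD, n = 3), by 1.57 on the log2 scale (edgeR adjusted p = 2.34e-15). It rose in SAM to 238 ± 12.5 CPM, with 0.41 ± 0.10 (edgeR adjusted p = 0.00386), while Ldha fell. The share of Ldha in the sum of both, which is not scaled per length and serves only to compare groups, was 56.7%, 58.9% and 52.8% in control. It was 72.3%, 66.3% and 73.2% with TGFβ and 32.7%, 32.2% and 33.9% in SAM, and these 3 groups did not overlap. With TGFβ+SAM it was 63.6%, 55.3% and 60.1%, overlapping control. These shares are given as values with no test, and an exact permutation test of 3 against 3 libraries cannot give a two-sided p below 0.1.

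Hk1, the constitutive hexokinase, fell by 0.70 on the log2 scale with TGFβ and rose by 0.34 in SAM (edgeR adjusted p = 2.4e-06 and 0.0222). Under TGFβ, SAM was accompanied by higher Ldhb, by 0.37 (edgeR adjusted p = 0.0281), whereas Hk1 was at -0.12 and did not pass. The Hk2 share of both hexokinases was 32.4% to 34.5% in control and 18% to 23.9% in SAM. Eno3, the muscle-type enolase, fell in SAM from 39 ± 1.17 to 13.6 ± 1.30 CPM (SD, n = 3), with -1.52 ± 0.21 (edgeR adjusted p = 1.24e-06). Among 19 listed isoforms and Gapdh, 10 were tested, of which 5 fell and none rose with TGFβ, including Pfkp (-1.51) and Eno2 (-0.67), with a median of -0.69. Of all genes 9.74% fell and 9.7% rose with TGFβ. In SAM 1 fell and 2 rose, where 6.79% of all genes fell and 5.02% rose. Gapdh held 118 reads in all libraries, and 87.7% of the windows at its 3′ end occur in other genes, so no value of its own is given. It is among the 10 tested genes and thus enters the counts and the median of this list.

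**Figure D5:**
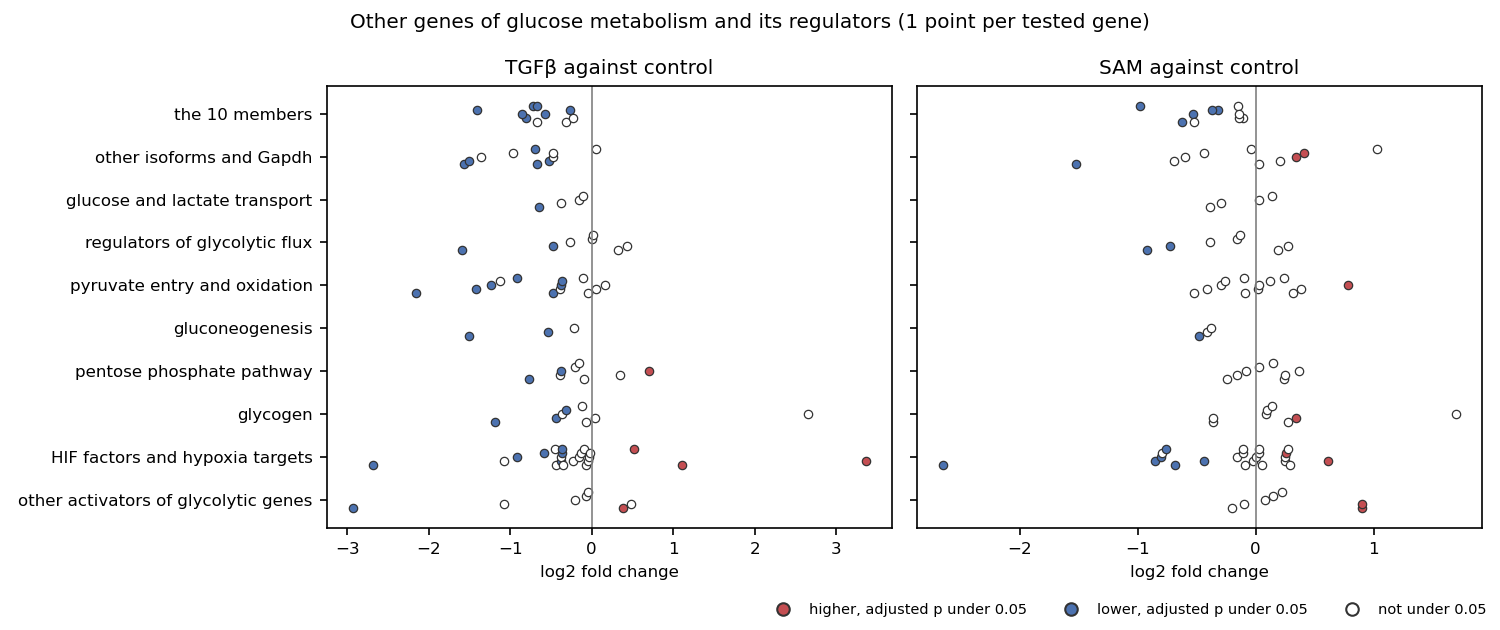
Log2 fold change with TGFβ (left) and SAM (right) against control for the 10 members and for the tested genes of 9 lists of glucose metabolism and its regulators. Each point is a gene, coloured by direction where the edgeR adjusted p is under 0.05. With TGFβ 7 of 13 pyruvate genes are lower and none higher, against 0 lower and 1 higher in SAM.

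The lists of related genes are set against all tested genes, of which TGFβ lowered 9.74% and raised 9.7%, and of which 6.79% were lower and 5.02% higher in SAM. Of 13 tested genes of pyruvate entry and oxidation, 7 fell and none rose with TGFβ, with a median of -0.39. They included Mpc2 (-1.24), a subunit of the mitochondrial pyruvate carrier, the pyruvate dehydrogenase kinases Pdk1 (-1.42) and Pdk2 (-2.16), and the phosphatase Pdp1 (-0.92). In SAM only Pdp1 passed, higher by 0.78 (edgeR adjusted p = 9.11e-05). Pdk and Pdp enzymes have opposite roles, inhibiting and activating the dehydrogenase.

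Of 4 tested transporters, TGFβ lowered Slc16a1, a monocarboxylate carrier that exports lactate, by 0.65 on the log2 scale (edgeR adjusted p = 0.00011). Against control, the glucose carrier Slc2a1 did not pass, at -0.37 (edgeR adjusted p = 0.0931) with TGFβ and -0.39 (adjusted p = 0.096) with SAM. It was called lower in TGFβ+NAM against NAM (-0.74, edgeR adjusted p = 0.000383) and in TGFβ+SAM against control (-0.8, edgeR adjusted p = 0.000115). In TGFβ+SAM against SAM it was at -0.41 and did not pass (edgeR adjusted p = 0.0503). Of 7 flux regulators, 2 fell with TGFβ and 2 in SAM, against 9.74% and 6.79% of all genes. Txnip, an inhibitor of glucose uptake, fell with TGFβ (-0.47) and was higher in TGFβ+NAM than in TGFβ by 0.56 (edgeR adjusted p = 0.0238), as 1 of 11 genes called there. That call was lost in a fit of the compared groups alone, where 0 genes passed. The other fall with TGFβ was that of Pfkfb2, a gene of few reads named after its values were seen, from 5.76 ± 1.90 to 1.89 ± 0.509 CPM (SD, n = 3), or -1.59 ± 0.50 on the log2 scale (SE, edgeR adjusted p = 0.0179). Pfkfb3, which makes an activator of phosphofructokinase, fell in SAM by 0.92 on the log2 scale (edgeR adjusted p = 0.0132).

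In side branches, the glycogen branching enzyme Gbe1 fell with TGFβ (-1.18). Of 8 pentose phosphate genes, TGFβ raised H6pd (0.71) and lowered Tkt (-0.77) and Pgd (-0.37), and none passed in SAM. Of 3 tested genes of gluconeogenesis, Slc37a4 (-1.51) and G6pc3 (-0.54) fell with TGFβ, and Pck2 (-0.48) fell in SAM.

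Hypoxia genes outside glycolysis did not follow the members in 1 direction. Of 22 tested, 3 rose and 6 fell with TGFβ, with a median of -0.29. Bhlhe40 (1.11) and Loxl2 (3.37) rose, while Car12 (-2.68) and the collagen prolyl hydroxylase P4ha1 (-0.59) fell. In SAM 6 fell and 2 rose, with a median of -0.06. P4ha1 (-0.85), Bhlhe40 (-0.76) and Fam162a (-0.68) fell there and Ddit4 (0.61) rose. The SAM interaction passed for Bhlhe40 (0.77) and P4ha1 (0.59), with edgeR adjusted p of 0.00403 and 0.0153, and for no gene of the other 8 metabolic lists. Among 7 other activators, TGFβ lowered Ppargc1a, a coactivator of mitochondrial genes, by 2.93 on the log2 scale and raised Stat3 by 0.39. In SAM, Ppargc1a and Esrra rose by 0.90 each.

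The members varied together to different degrees. Over the 18 libraries, the Pearson correlation of log2 levels was highest for Aldoa and Tpi1 (r = 0.95) and lowest for Pfkl and Pgam1 (r = 0.08). The libraries share groups, and low counts limit the values for Pgam1 and Pgk1. Among 6985 other genes with a mean of at least 20 CPM, those most correlated with the mean of the 10 scaled members over 18 libraries were Tmem176a (r = 0.987), Tinagl1 (0.974), Lama5 (0.963), Vcam1 (0.961) and Ltbp3 (0.957). Tmem176a was at 223 ± 9.30 CPM in control, 133 ± 6.60 with TGFβ, 159 ± 9.10 in SAM and 101 ± 3.24 with TGFβ+SAM (SD, n = 3). Vcam1 encodes an adhesion molecule and Lama5 a laminin chain.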

How the data were processed

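The deposited table holds raw counts, whole-number reads per gene and library, made by the authors from QuantSeq 3′ libraries of im-TEC. STAR, HTSeq and GRCh38 are named, per the submitters' processing notes, although the gene rows carry mouse Ensembl identifiers. The aligner settings, the annotation release and the strand setting are not given in the sources used here. Symbols were matched for 55141 of 55487 identifiers in GENCODE M21 (GRCm38). Special rows were left out, with reads outside genes making up 22.8% to 28.2% and ambiguous reads 0.607% to 0.779% of a library.

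Groups were taken from the sample titles. Counts were fitted with edgeR 4.0.16 in R 4.3.3, with TMM scaling, filterByExpr at a minimum count of 10 (13469 genes) and a term per group over all 18 libraries. There were 10 comparisons and 2 interactions, tested with two-sided quasi-likelihood F tests and Benjamini-Hochberg adjustment over all genes at 0.05. The biological coefficient of variation was 0.139. CPM values use the TMM factors and are given per library or as mean ± SD. Fold changes are fitted log2 values ± SE at the default prior count of edgeR. The SE is the absolute log2 change divided by the square root of its F statistic. Log2 CPM for the correlations used a prior count of 2. The fit was tested on simulated data. Alternatives were other scalings, other filters, DESeq2 1.42.0, a replicate block, the compared groups alone, and fits without single libraries, the SAM libraries of conflicting tags, or the libraries that stand apart.

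The 10 members were named in every comparison. From each list of related genes, up to 4 genes with the smallest p and a mean of at least 5 CPM were eligible to be named. Not every gene eligible under this rule is reported here. The 5 most similar genes were ranked by Pearson r, among genes of at least 20 CPM. Members and lists were chosen with earlier results of these data known. Promoter windows come from RefSeq (GRCm38.p6), and proteins were not analysed here.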

Additional observations from a re-analysis of the deposited data

Results flagged for a closer look

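The TGFβ effect on 2 members differed between cells with SAM and cells without a supplement, by a test of the difference itself. For Ldha the effect with SAM minus that without was 0.65 ± 0.13 on the log2 scale (SE; edgeR adjusted p = 0.00409, 3 libraries in each of 4 groups). TGFβ libraries were all below control without a supplement and overlapped with SAM. For Eno1 the difference was -0.71 ± 0.18 (edgeR adjusted p = 0.0317). TGFβ libraries were all below their own controls on both sides, by 0.57 and 1.28 on the log2 scale. The Eno1 call was lost in 8 of 12 fits without 1 library, with edgeR adjusted p up to 0.12. The Ldha call was kept in all 12. With SAM replicate 1 as the only SAM library, the differences were 0.66 for Ldha and -0.56 for Eno1. Of the windows at the 3′ end of Eno1, 83.8% occur in other genes. SAM and its separate run of library numbers cannot be told apart here either.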

How the results depend on the processing

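The counts of members called kept within 1.5 times of their value under other scalings, a minimum count of 30 and DESeq2 in all comparisons. Counts moved as follows. In SAM against control 2 members passed without the SAM libraries of conflicting tags, and 3 to 5 when 1 library was left out. In TGFβ+SAM against TGFβ, 3 passed with the compared groups alone and 3 to 6 without 1 library. In TGFβ+SAM against TGFβ+NAM, 3 passed with the compared groups alone and 3 to 5 without 1 library. For the SAM interaction 1 passed with no low-count filter, 0 without the SAM libraries of conflicting tags and 1 to 2 without 1 library. Over all genes, leaving out the libraries of conflicting tags gave 466 calls in place of 1591 for SAM against control, 2258 in place of 3824 for TGFβ+SAM against SAM, 639 in place of 1937 for SAM against NAM and 63 in place of 193 for the SAM interaction. The compared groups alone gave 667 in place of 1097 for TGFβ+SAM against TGFβ+NAM. For NAM against control 1 gene became 15 without a filter and 14 in DESeq2, and for TGFβ+NAM against TGFβ 11 became 32 and 36, 20 without the libraries that stand apart and 0 with the compared groups alone. Fewer libraries enter the fits without the tagged libraries, and the cause of the other shifts was not tested. Of 1247 alternative values for single members, 45 lost a call, 7 gained one and 19 changed sign, none of the last in a called result. With the libraries of conflicting tags left out, Pgam1 turned to 0.4 in TGFβ+SAM against SAM. Leaving out the libraries that stand apart turned Gpi1 to -0.03 and Tpi1 to 0.04 in TGFβ+SAM against TGFβ+NAM. Leaving out 1 library gave ranges that crossed 0 for Pgam1 in TGFβ+NAM against NAM (0 to 0.35), TGFβ+SAM against SAM (-0.61 to 0.26), SAM against control (-0.54 to 0.07) and TGFβ+SAM against TGFβ (-0.52 to 0.19). The same held for Ldha in TGFβ+SAM against SAM (-0.07 to 0.03), for Gpi1 in TGFβ+SAM against TGFβ (-0.18 to 0.05), SAM against NAM (-0.13 to 0.04) and TGFβ+SAM against TGFβ+NAM (-0.04 to 0.16), and for Tpi1 in the last of these (-0.23 to 0.03).

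With the replicate number as a block, the member counts were 7 for TGFβ against control, 8 with NAM, 7 with SAM, 5 for SAM against control, 6 for TGFβ+SAM against TGFβ and 2 for the SAM interaction, as without it. Over all genes the block gave 2570 calls for TGFβ against control, against 2619. Same-numbered libraries of different groups deviated with r from -0.1 to 0.07, and differently numbered ones with r from -0.13 to 0.17. No deviation shared by number was seen. These values cannot show whether same-numbered libraries came from the same culture or day, which the labels do not state. Counts of reads limit Pgk1 and Pgam1 most.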
